A study of Mus musculus with 24 samples.

Results

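The miR-183 cluster is a group of 3 microRNA hairpins, Mir183, Mir96 and Mir182, that lie close together on the same strand of mouse chromosome 6. The members described here are the 5 mature strands named for it: mmu-miR-183-5p, mmu-miR-183-3p, mmu-miR-96-5p, mmu-miR-182-5p and mmu-miR-182-3p. The rule takes them by name and uses no measured value, though the cluster was picked with earlier results of these data known. They are 5 of the 1978 mature miRNAs in the count table. The remaining arm, miR-96-3p, also has a row in the table and is described beside them. Small RNA was sequenced from enriched pachytene and diplotene spermatocytes (SP) and from round spermatids (RS), which are the haploid cells formed after meiosis. Cells came from adult males of 10 to 15 weeks on a C57BL/6J background, and were wild-type (Ago413+/+), heterozygous (Ago413+/-) or homozygous mutant (Ago413-/-). The Ago413 allele is a constitutive deletion that removes Ago1 and parts of Ago3 and Ago4, present in every cell of the animal, while Ago2 remains in all groups. Each group had 4 libraries, for 24 in all, and testes of 2 to 5 mice were pooled for each cell suspension, from which fractions with a purity over 70% were kept. The labels number the libraries of a group from 1 to 4 without saying that each number is a separate pool of animals, so p-values measure the spread between these libraries, part of which may be technical.

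MicroRNAs are cut from hairpin transcripts by Drosha and Dicer. A single strand of the resulting duplex, the guide, is held by an Argonaute protein, while the other strand is usually lost. Bases 2 to 8 of the guide, the seed, decide most of the pairing with target messenger RNAs. The miR-183 cluster is best known from sensory epithelia, where it is abundant in photoreceptors and in the hair cells of the inner ear, and mutations in the seed of Mir96 cause hearing loss in mice and people. Its 3 hairpins are made from a common primary transcript.

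The guide strands are shown first, with the seed in capitals, because their seeds are alike without being identical. Each is written 5′ to 3′ as RNA, taken from RefSeq on the assembly GRCm38.p6, in which all 5 members and miR-96-3p were found.
miR-183-5p: uAUGGCACugguagaauucacu
miR-96-5p: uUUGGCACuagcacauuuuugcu
miR-182-5p: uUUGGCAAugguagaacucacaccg
The opposite arms of the same hairpins have seeds unlike these and unlike each other.
miR-183-3p: gUGAAUUAccgaagggccauaa
miR-96-3p: cAAUCAUGuguagugccaauau
miR-182-3p: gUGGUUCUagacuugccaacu

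Counted from the 5′ end, miR-183-5p and miR-96-5p differed within the first 8 bases by A2U alone (the first-named strand has the first base), miR-96-5p and miR-182-5p by C8A alone, and miR-183-5p and miR-182-5p by A2U and C8A. Bases 3 to 7 were the same in all 3 guides, and 5 of the 1679 rows of the table with a RefSeq sequence held those bases at that place (0.298%). The other rows were miR-1271-5p, which has the seed of miR-96-5p and summed to 4 counts over the 24 libraries, and miR-7022-5p, which summed to 3. Among rows with a sequence, nearly all counts with this core of the seed were thus counts of the cluster itself. Over the whole strand miR-183-5p and miR-182-5p matched at 18 of 22 bases, with 12 of the 14 beyond base 8 the same, and were each other's closest row in the table, with 4 mismatches. Closest here means the fewest mismatches over the shorter overlap, with shifts of up to 2 bases, a count that favours short overlaps. By it the closest row to miR-96-5p was miR-546, with 7 mismatches. This does not make miR-546 more alike to it than the other guides. Without a shift, miR-183-5p matched miR-96-5p at 13 of 22 bases and miR-182-5p matched it at 12 of 23. The guides began with U in 3 of 3 cases, as did 45.3% of the 373 kept miRNAs with a sequence, and the 3p arms began with G, C and G. The GC content was 40.9% in miR-183-5p, 39.1% in miR-96-5p and 48.0% in miR-182-5p, against a median of 45.8% over those 373.

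The hairpins are shown whole, with both mature arms in capitals, to place the strands that were and were not recovered.
Mir183: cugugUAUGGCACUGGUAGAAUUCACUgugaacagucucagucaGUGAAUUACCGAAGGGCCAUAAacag
Mir96: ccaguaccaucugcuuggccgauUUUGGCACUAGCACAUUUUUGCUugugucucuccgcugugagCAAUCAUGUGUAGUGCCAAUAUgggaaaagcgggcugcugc
Mir182: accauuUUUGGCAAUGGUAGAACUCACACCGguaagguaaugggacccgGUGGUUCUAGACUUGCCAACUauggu

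On GRCm38.p6 all 3 hairpins lie on the minus strand, with Mir183 at chr6:30169668-30169737, Mir96 at chr6:30169446-30169551 and Mir182 at chr6:30165918-30165992. Only 116 bases separate Mir183 from Mir96, while 3453 bases lie between Mir96 and Mir182, and the span of the cluster is 3820 bases. No other gene of the GENCODE vM21 annotation overlaps that span. The nearest genes are the lincRNA Rncr4, 3155 bases away on the side of Mir183, and the coding gene Nrf1, 12459 bases away on the side of Mir182, both on the opposite strand.

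Library totals over all miRNAs ranged from 182904 to 1072637 counts, and the 4 SP Ago413-/- libraries, with 182904 to 369491, were the shallowest group by median. A count of 0 allowed a level of up to 2.74 to 20.0 CPM, depending on the library (3 counts per library; counting error only, since reads without molecular identifiers are not independent molecules). CPM here means counts per 1000000 miRNA counts after TMM scaling over the 450 miRNAs kept, those for which 3 or more libraries held a count of 10 or higher. The meiotic and spermatid markers miR-34b-5p, miR-34c-5p and miR-449a-5p, whose loci are strongly active in these germ cells, summed to between 18730 and 185930 CPM in every library. The table holds miRNAs only, so the Ago deletion itself could not be checked in it.

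The guide strands of all 3 hairpins were present in every library. miR-183-5p summed to 9350 counts, with 80 to 864 in a library, and miR-182-5p summed to 8082, with 116 to 639. miR-96-5p was rarer, with 1249 counts in all and 2 to 103 in a library, and it reached 10 counts in 23 of 24 libraries. By mean level over the 24 libraries miR-183-5p ranked 105 and miR-182-5p 110 among the 450 kept miRNAs, with 778 and 693 CPM, and miR-96-5p ranked 216 with 98.8 CPM. Since each read covers a whole mature miRNA these levels were not divided by length, but adapter ligation does not take up every sequence equally well, which limits such a comparison between miRNAs. In the sum of the guides, the mean share of miR-96-5p by group lay between 4.38% and 8.10%, that of miR-183-5p between 46.5% and 52.3%, and that of miR-182-5p between 39.6% and 47.2%.

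**Figure D1:**
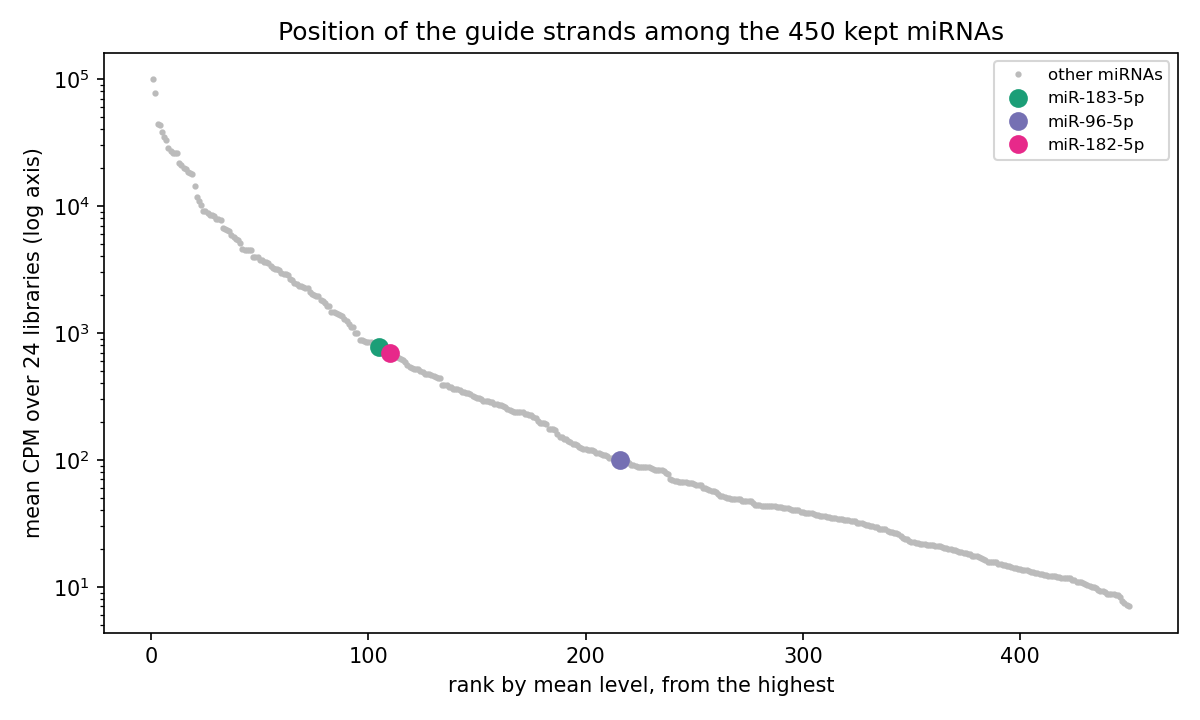
Mean level in CPM over the 24 libraries (log axis) of the 450 kept miRNAs against their rank from the highest. The coloured points are the guide strands, with miR-183-5p at rank 105, miR-182-5p at rank 110 and miR-96-5p at rank 216, and grey points are the other miRNAs.

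The 3p strands were close to absent. miR-183-3p had 5 counts in 4 libraries, miR-182-3p had 15 counts in 9 libraries and miR-96-3p had 7 counts in 5 libraries, so that none passed the filter on low counts and none was tested. Of the counts on both arms, the 3p arm took 0.0534% at Mir183 (exact 95% binomial interval 0.0174% to 0.125%), 0.185% at Mir182 (0.104% to 0.305%) and 0.557% at Mir96 (0.224% to 1.14%). The intervals in this paragraph come from counts pooled over libraries. They cover counting error only and not the spread between libraries. These shares show a clear preference for the 5p arm at each hairpin. Among the 198 hairpins whose arms summed to 500 counts or more, they were the 26th, 41st and 61st lowest shares of the rarer arm, and the median was 3.17%. In the Ago413-/- groups the Mir183 3p arm had 0 of 1015 counts in spermatocytes, which allows a share of up to 0.296%, and 2 of 1684 in round spermatids, or 0.119% (0.0144% to 0.428%). In the wild-type groups it had 1 of 1697 and 0 of 2107 counts, the latter allowing up to 0.142%. The widest gap between groups was at Mir96 in round spermatids, where the 3p arm had 4 of 175 counts in Ago413+/+, or 2.29% (0.626% to 5.75%), and 0 of 261 in Ago413-/-, which allows up to 1.15%. These are 4 counts in all, of which RS Ago413+/+ replicate 4 held 3. The exact intervals of the 6 groups overlapped at each hairpin, but overlap of intervals is not a test of a difference. With so few counts, a change in the use of the arms with genotype was not tested.

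miR-183-5p stood at 679, 717, 597 and 800 CPM in SP Ago413+/+ libraries and at 882, 533, 1041 and 1515 CPM in SP Ago413-/- libraries. The mutant group held both the lowest and the highest of all 24 values, so it overlapped the wild type. Its mean of 992 ± 408 CPM (SD, n = 4) was the highest of the 6 groups, followed by RS Ago413+/+ with 790 ± 149, RS Ago413-/- with 764 ± 103, RS Ago413+/- with 718 ± 119, SP Ago413+/- with 708 ± 170 and SP Ago413+/+ with 698 ± 84.1. No neighbouring groups in this order differed by more than the larger of their SDs. Counting error alone would give a coefficient of variation of 7.45% in SP Ago413-/-, against 41.1% observed.

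miR-182-5p stood at 631, 590, 564 and 714 CPM in SP Ago413+/+ libraries and at 741, 772, 1015 and 1144 CPM in SP Ago413-/- libraries. Here all 4 mutant libraries lay above all 4 wild-type libraries. The order of the group means ran from SP Ago413-/- with 918 ± 194 CPM (SD, n = 4), through SP Ago413+/- with 697 ± 195, RS Ago413+/+ with 675 ± 165, RS Ago413+/- with 664 ± 84.6 and SP Ago413+/+ with 625 ± 65.4, to RS Ago413-/- with 581 ± 121. Only the step from the first to the next exceeded both SDs, and those 2 groups overlapped, since SP Ago413+/- libraries reached 866 CPM.

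miR-96-5p stood at 73.3, 45.6, 64.3 and 79.1 CPM in RS Ago413+/+ libraries. It stood at 142, 160, 70.8 and 87.4 CPM in RS Ago413+/- libraries and at 148, 114, 111 and 96.9 CPM in RS Ago413-/- libraries. All 4 mutant libraries were above all 4 wild-type libraries, and the heterozygous group overlapped both. In spermatocytes the values were 97.9, 86.3, 79.5 and 82.5 CPM in Ago413+/+ libraries and 164, 13.3, 111 and 81.7 CPM in Ago413-/- libraries, where replicate 2, the shallowest library of all, held only 2 counts (exact 95% Poisson interval 1.61 to 48.1 CPM). The order of the group means ran from RS Ago413-/- with 117 ± 21.6 CPM (SD, n = 4), SP Ago413+/- with 116 ± 24.4 and RS Ago413+/- with 115 ± 42.8, which did not differ beyond their spread, through SP Ago413-/- with 92.5 ± 62.8 and SP Ago413+/+ with 86.5 ± 8.09, to RS Ago413+/+ with 65.6 ± 14.6. Only the last step exceeded the SD of both groups.

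**Figure D2:**
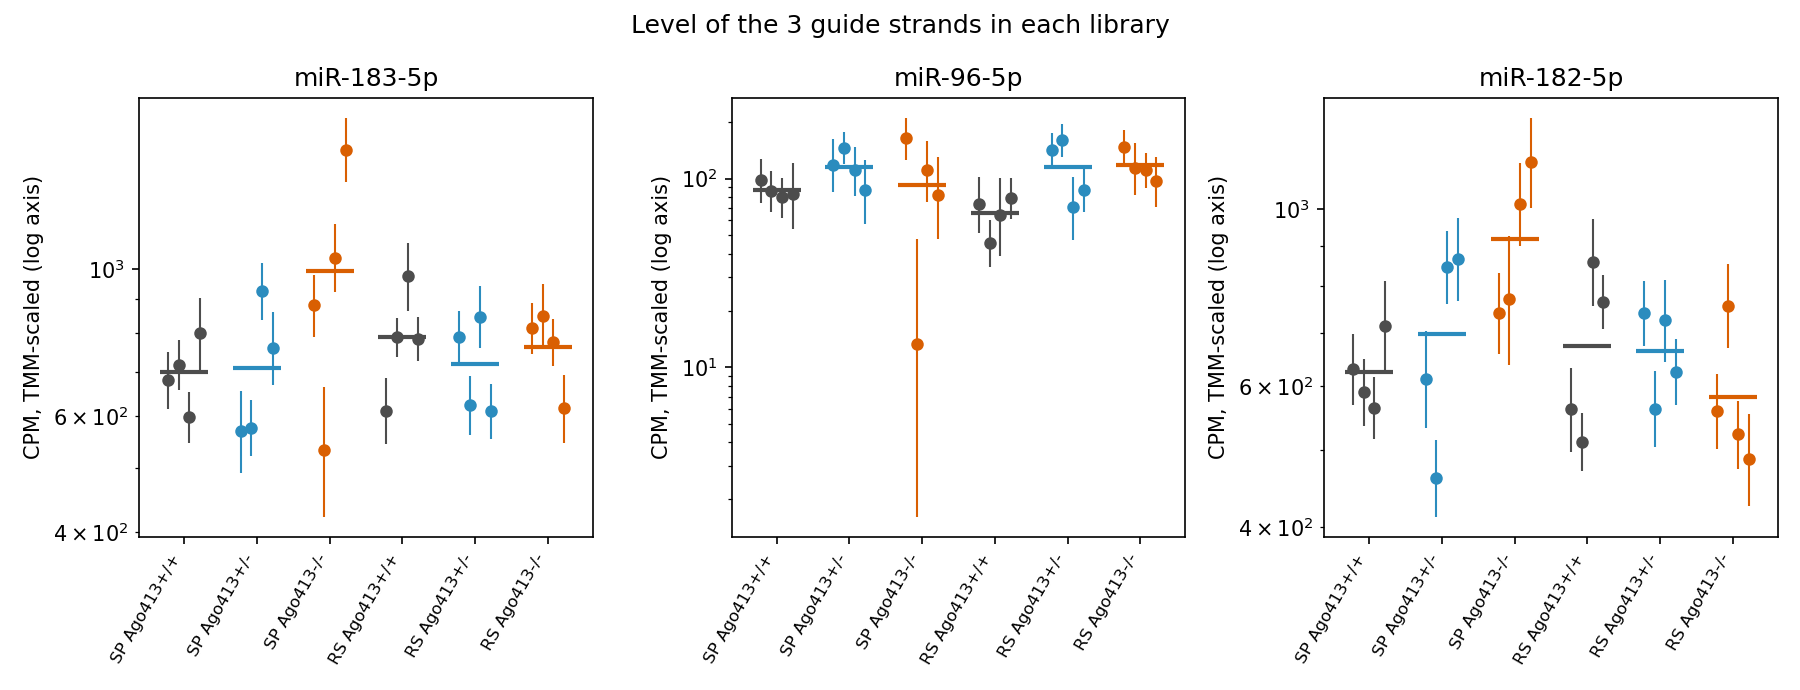
Level of each guide strand in CPM after TMM scaling (log axis, a separate range in each panel) in the 24 libraries, by cell type and genotype. Points are libraries with exact 95% Poisson intervals from their counts and horizontal lines are group means (n = 4). For miR-96-5p the RS Ago413-/- libraries at 96.9 to 148 CPM lie above the RS Ago413+/+ libraries at 45.6 to 79.1 CPM, and the single low point in SP Ago413-/- is the library with 2 counts.

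To ask whether loss of these Argonautes changes miRNA levels, genotypes were compared within each cell type with edgeR's quasi-likelihood test over all kept miRNAs. A miRNA was called at a Benjamini-Hochberg adjusted p under 0.05 and a log2 fold change of at least 1 in size. No member was called in any comparison by edgeR or by DESeq2. In spermatocytes 0 of 3 tested members were called in Ago413-/- against Ago413+/+, where 4.46% of the 404 tested miRNAs were. The same count was 0 of 3 in Ago413+/- against Ago413+/+, against a background of 0%, with 13 miRNAs at an unadjusted p under 0.05 and 0 called by DESeq2, and 0 of 3 in Ago413-/- against Ago413+/-, against 2.23%. In round spermatids it was 0 of 3 in Ago413-/- against Ago413+/+, where 16.2% of 426 miRNAs were called, 0 of 3 in Ago413-/- against Ago413+/-, where 12.4% were, and 0 of 3 in Ago413+/- against Ago413+/+, where 0% were (68 miRNAs at an unadjusted p under 0.05, and 6 called by DESeq2). At an unadjusted p under 0.05, 1 of 3 members passed in each comparison of round spermatids with the wild type, miR-96-5p in both, where 36.2% of all miRNAs passed for Ago413-/- and 16.0% for Ago413+/-, and 0 of 3 passed in Ago413-/- against Ago413+/-, where 33.8% did. In spermatocytes 0 of 3 passed in each comparison, where 25.5% of all miRNAs passed in Ago413-/- and 3.22% in Ago413+/- against the wild type, and 23.8% in Ago413-/- against Ago413+/-.

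In round spermatids miR-96-5p was higher in Ago413-/- than in Ago413+/+ by a log2 fold change of 0.99 ± 0.31 (SE; 95% interval 0.34 to 1.64) with an adjusted p of 0.0282 in edgeR's quasi-likelihood test. It thus passed the test on p, as did 23.7% of the 426 miRNAs, and fell just short of the required fold. Of the tested miRNAs, 8.22% had all 4 mutant libraries above all 4 wild-type ones, as miR-96-5p did. The other guides did not follow it. miR-183-5p stood at 610, 789, 974 and 785 CPM in RS Ago413+/+ and at 815, 849, 775 and 616 CPM in RS Ago413-/- libraries, a log2 fold change of 0.11 ± 0.22 (95% interval -0.36 to 0.57, edgeR adjusted p = 0.748), and miR-182-5p had a log2 fold change of -0.06 ± 0.23 (-0.55 to 0.43, edgeR adjusted p = 0.887). The median over the 3 guides was 0.11 and that over all 426 miRNAs was 0.13. The latter was -0.09 when library totals were used without TMM scaling, a shift of 0.23, and on that scale miR-96-5p had a log2 fold change of 0.75 with an edgeR adjusted p of 0.0959. Over the alternatives that kept all 8 libraries of the comparison its adjusted p lay between 0.0283 and 0.191.

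The adjusted p of miR-96-5p depended on single libraries. With edgeR it went up to 0.0982, 0.161, 0.0616 and 0.0574 without RS Ago413+/+ replicate 1, 2, 3 and 4, and to 0.128 without RS Ago413-/- replicate 1, while without RS Ago413-/- replicate 2, 3 or 4 both thresholds were met, at log2 fold changes of 1.01, 1.01 and 1.05. In Ago413+/- round spermatids miR-96-5p had a log2 fold change of 0.89 ± 0.30 against the wild type (95% interval 0.25 to 1.54, edgeR adjusted p = 0.192), and Ago413-/- and Ago413+/- differed by 0.10 (-0.53 to 0.73, edgeR adjusted p = 0.837). Both genotypes were compared with the same 4 wild-type libraries.

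Markers of other cells moved in the same comparison of round spermatids, Ago413-/- against Ago413+/+. Of the lists of marker miRNAs, 3 of 3 tested blood, 1 of 2 endothelial, 1 of 4 peritubular and mesenchymal, 1 of 5 epithelial, 1 of 2 gonadal somatic and 1 of 4 spermatogonial markers were called higher, 0 of 3 meiotic and spermatid markers were, and none was called lower. Over all 426 miRNAs 16.2% were called, 32 higher and 37 lower. The meiotic and spermatid marker miR-449a-5p had a log2 fold change of 0.98 with an edgeR adjusted p of 0.0110, short only of the required fold. The log2 fold change was 0.16 for miR-34b-5p and 0.21 for miR-34c-5p. The summed level ran from 511 to 1988 CPM in wild-type and from 1949 to 5852 CPM in mutant libraries for the endothelial list, from 51.5 to 501 and from 122 to 4840 CPM for blood, and from 2497 to 8167 and from 9023 to 15961 CPM for the gonadal somatic list. It ran from 5673 to 9575 and from 12580 to 14474 CPM for the spermatogonial list, from 1484 to 2112 and from 1748 to 3085 CPM for the epithelial list, from 2683 to 10368 and from 6162 to 7571 CPM for the peritubular and mesenchymal list, and from 59185 to 108282 and from 70316 to 133692 CPM for the meiotic and spermatid list. The blood marker miR-144-3p was at 0 in some libraries of both genotypes, and miR-223-3p in some of the wild type. The part of these cells in the value of miR-96-5p was not tested. In Ago413+/- against Ago413+/+ round spermatids edgeR called 0 markers of these lists and 0% of all 426 miRNAs. The count of 0 thus could not tell the lists from the rest. The median log2 fold change there was 1.67 for blood, 0.61 for meiotic and spermatid, 0.25 for spermatogonial and 0.07 for epithelial markers. It was -0.23 for endothelial, -0.23 for gonadal somatic and -0.44 for peritubular and mesenchymal markers. In material of mixed cells, fewer cells of a type and less of the miRNA in each cell cannot be told apart.

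In spermatocytes the larger values belonged to the other guides. miR-182-5p had a log2 fold change of 0.54 ± 0.30 in Ago413-/- against Ago413+/+ (SE; 95% interval -0.10 to 1.18, edgeR adjusted p = 0.298), and miR-183-5p one of 0.49 ± 0.34 (-0.22 to 1.21, edgeR adjusted p = 0.398). The separation of the groups seen for miR-182-5p was shared by 7.18% of the 404 tested miRNAs in that direction. miR-96-5p had a log2 fold change of 0.13 ± 0.47 (-0.86 to 1.13, edgeR adjusted p = 0.862). The median over the guides was 0.49 and that over all 404 miRNAs was -0.05, or -0.24 with library totals alone. Replicate 4 of SP Ago413-/- weighed most on miR-183-5p, whose log2 fold change was 0.16 without it and whose highest level it held. For miR-96-5p the value was 0.46 without SP Ago413-/- replicate 2, the library with 2 counts, and -0.39 without replicate 1. The summed meiotic and spermatid markers ran from 58023 to 111990 CPM in SP Ago413+/+ and from 18730 to 78790 CPM in SP Ago413-/- libraries, with 0 of 3 called in either direction, and none of the 22 tested markers of the lists was called in this comparison. Their part in these values was not tested.

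**Figure D3:**
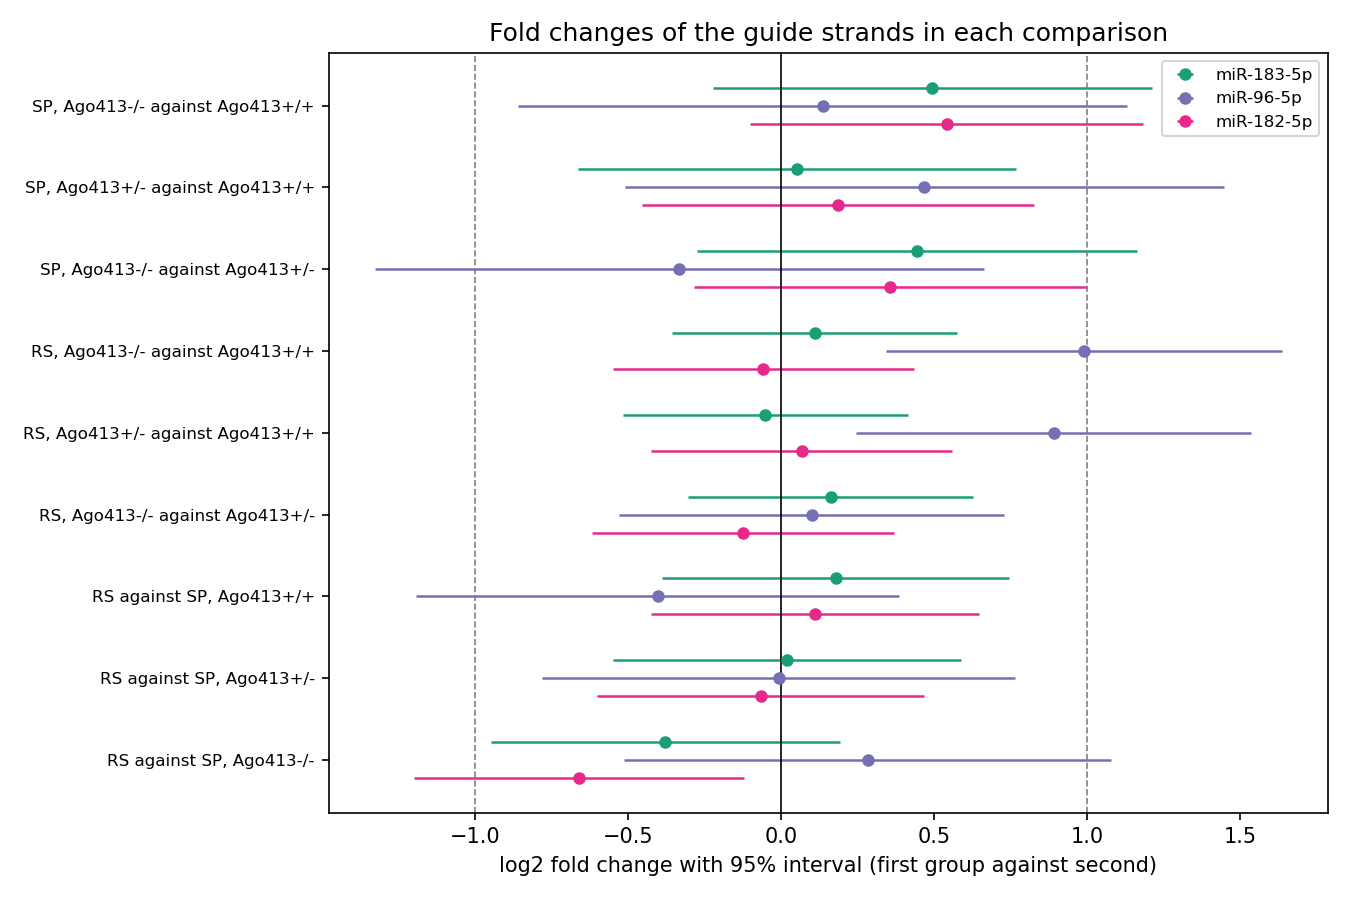
Log2 fold change of each guide strand (points) with its 95% interval (lines) in the 9 comparisons between groups, from edgeR, with the first-named group against the other. Dashed lines mark the fold needed for a call. The interval of miR-96-5p lies above 0 in both comparisons of round spermatids with the wild type, and that of miR-182-5p lies below 0 in round spermatids against spermatocytes of Ago413-/-.

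Between the cell types, round spermatids were compared with spermatocytes of the same genotype in a fit of all 24 libraries, with 0 of 3 members called in each genotype. The background was 0% of 450 miRNAs in Ago413+/+ (10 at an unadjusted p under 0.05, and 0 called by DESeq2), 0% in Ago413+/- (15 and 0) and 4.89% in Ago413-/-. In wild-type cells the log2 fold changes were 0.18 (95% interval -0.39 to 0.75) for miR-183-5p, 0.11 (-0.43 to 0.64) for miR-182-5p and -0.40 (-1.19 to 0.38) for miR-96-5p, each with an edgeR adjusted p of 0.996. All 4 wild-type round spermatid libraries had less miR-96-5p than all 4 spermatocyte libraries, by 79.1 against 79.5 CPM at the nearest, as was so for 0.889% of the miRNAs, or 4 of 450. In heterozygous cells all 3 guides had fold changes within 0.07 of 0.

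In Ago413-/- cells miR-182-5p was at 559, 757, 523 and 487 CPM in round spermatids, against 741 to 1144 CPM in spermatocytes. Only the highest spermatid library reached into the range of the spermatocytes. The log2 fold change was -0.66 ± 0.26 (SE; 95% interval -1.20 to -0.12) with an adjusted p of 0.107 in edgeR and 0.0207 in DESeq2, in both without the fold needed for a call, and from 0.0207 to 0.487 over the alternatives that kept all libraries of the comparison. miR-183-5p had a log2 fold change of -0.38 (-0.95 to 0.19, edgeR adjusted p = 0.379), which was 0.05 without SP Ago413-/- replicate 4, and miR-96-5p one of 0.28 (-0.51 to 1.08, edgeR adjusted p = 0.678). Without that same library miR-182-5p had -0.39 (edgeR adjusted p = 0.338).

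Whether the genotype acted differently in the 2 cell types was tested as an interaction, called on the adjusted p alone. For Ago413-/- against Ago413+/+ 0 of 3 members and 0% of the 450 miRNAs were called (55 at an unadjusted p under 0.05, and 0 by DESeq2). The interaction, on the log2 scale as round spermatids minus spermatocytes, was -0.77 ± 0.37 (SE) for miR-182-5p, with an unadjusted p of 0.0469 and an adjusted p of 0.394 in edgeR. It was -0.56 ± 0.39 for miR-183-5p (edgeR adjusted p = 0.462) and 0.69 ± 0.54 for miR-96-5p (edgeR adjusted p = 0.526). For Ago413+/- against Ago413+/+ 0 of 3 members and 0% of the miRNAs were called (12 and 0). No difference between the cell types was shown, and for Ago413-/- the 95% intervals of the members reached from -1.53 to 1.81.

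Because the guides are made from a common transcript, their ratios within a library were compared too, as these do not depend on the scaling of the library. miR-96-5p stood at 12.1%, 5.84%, 6.76% and 10.1% of the miR-183-5p count in RS Ago413+/+ libraries and at 18.2%, 13.6%, 14.4% and 15.9% in RS Ago413-/- libraries (0.5 counts added to each). The groups did not overlap, and the mean ratio was 1.85 times higher in the mutant, a log2 difference of 0.89 with p = 0.0286 in a two-sided exact permutation test, the smallest that 4 against 4 libraries allow, and an adjusted p of 0.400 over the 14 ratio tests made. As miR-183-5p changed little there (log2 fold change 0.11), this ratio mostly repeats the difference in miR-96-5p and is not separate support. The separation in the level of miR-96-5p was shared by 8.22% of the tested miRNAs. In RS Ago413+/- the ratio ran from 8.49% to 25.8% and differed from the wild type by 0.89 (exact permutation p = 0.114, adjusted p = 0.480). In spermatocytes it ran from 10.5% to 14.5% in Ago413+/+ and from 3.11% to 18.7% in Ago413-/-, a log2 difference of -0.71 (exact permutation p = 0.343, adjusted p = 0.622), or -0.27 without the Ago413-/- library with 2 counts.

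The ratio of miR-182-5p to miR-183-5p had group means from -0.40 to -0.04 on the log2 scale, with single libraries from 64.8% to 144.7%. It ran from 64.8% to 97.6% in RS Ago413+/+, from 67.4% to 89.2% in RS Ago413-/-, from 82.3% to 94.5% in SP Ago413+/+ and from 75.6% to 144.7% in SP Ago413-/-, and the groups overlapped in every comparison. Its log2 differences between groups lay between -0.36 and 0.13, with exact permutation p-values from 0.143 to 0.743. Of the 14 ratio tests, 0 had an adjusted p under 0.05 and 1 an unadjusted one. The ratios of 3p to 5p arms had too few counts to be compared.

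**Figure D4:**
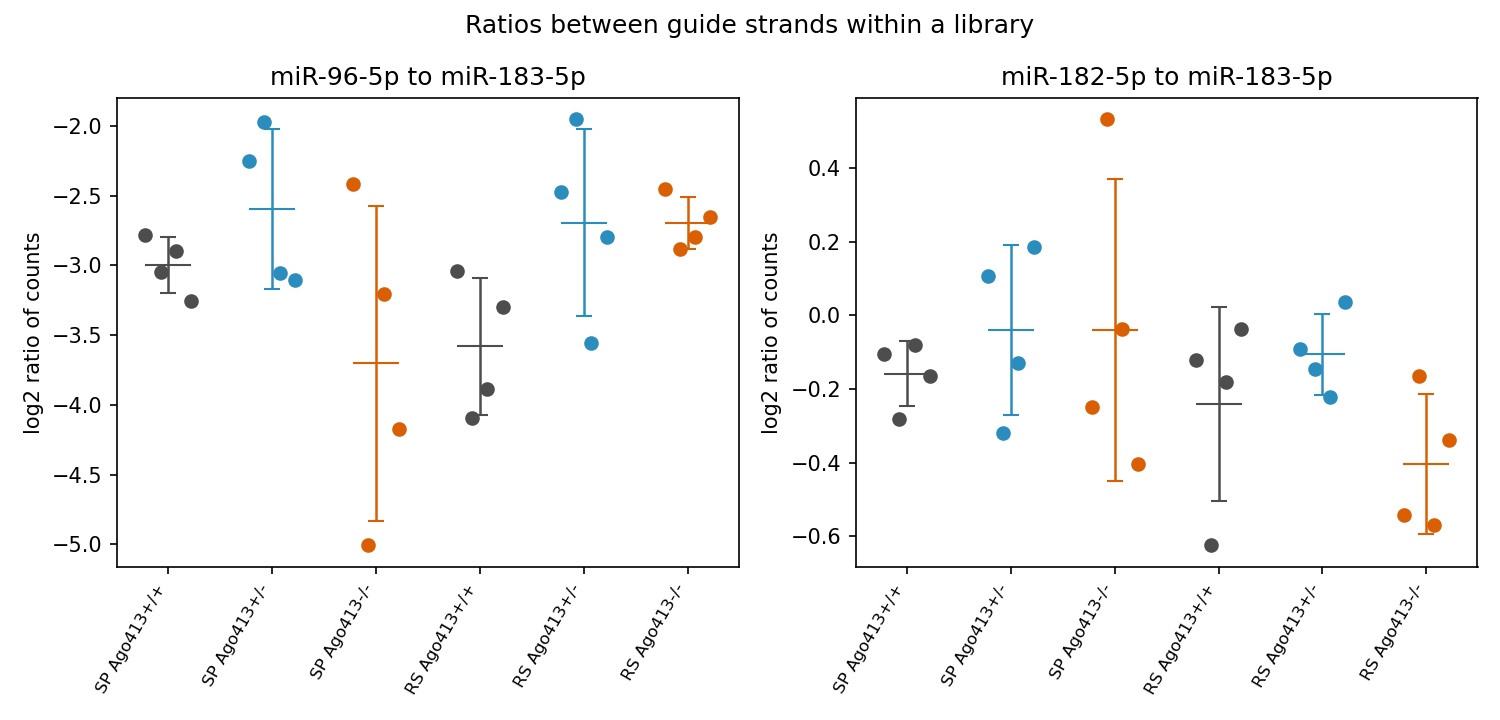
Log2 ratio of counts of miR-96-5p (left) and miR-182-5p (right) to miR-183-5p in each library, with the group mean and SD (n = 4), the axes having different ranges. For miR-96-5p the RS Ago413-/- libraries lie between -2.88 and -2.45, all above the RS Ago413+/+ libraries at -4.10 to -3.04, while for miR-182-5p the groups overlap.

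Across the 24 libraries miR-183-5p and miR-182-5p rose and fell together more than either did with miR-96-5p. The correlation of their log2 CPM was Pearson's r = 0.73 (Spearman's rho = 0.56), the same after the group means were subtracted, 0.81 over the 12 spermatocyte and 0.63 over the 12 round spermatid libraries, and 0.75 over 22 libraries without the 2 farthest in miR-183-5p. For miR-183-5p and miR-96-5p r was 0.16 (rho = 0.06), 0.38 after the group means were subtracted, 0.28 over the spermatocyte and -0.20 over the round spermatid libraries, and -0.08 over the 22 libraries, and for miR-182-5p and miR-96-5p it was -0.15 (rho = -0.19), 0.03 after the group means were subtracted, and -0.17 and -0.08 within the cell types. The correlations are descriptions across libraries that share depth and scaling, and the low counts of miR-96-5p limit its correlations. Among the 450 kept miRNAs, only 2 had a higher r with miR-182-5p than miR-183-5p did, miR-25-3p (0.85) and miR-7210-5p (0.75). The next below it were miR-200c-3p (0.70), miR-340-3p (0.68) and miR-1194 (0.67). With the mean of the 3 guides after the group means were subtracted, the highest were miR-669a-5p and miR-669p-5p (both 0.90), miR-15b-5p and miR-466d-3p (both 0.86) and miR-296-5p (0.86). These values rest on SP Ago413-/- replicate 2, in which these 5 miRNAs, miR-183-5p and miR-96-5p each lay farthest below the group mean of all 24 libraries. Without it r was 0.58, 0.59, 0.39, 0.35 and 0.41 over 23 libraries, and none of the 5 was among the 15 highest, while miR-25-3p (0.85) and miR-7210-5p (0.78) still had the highest r with miR-182-5p. This library was left out after the data were seen.

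**Figure D5:**
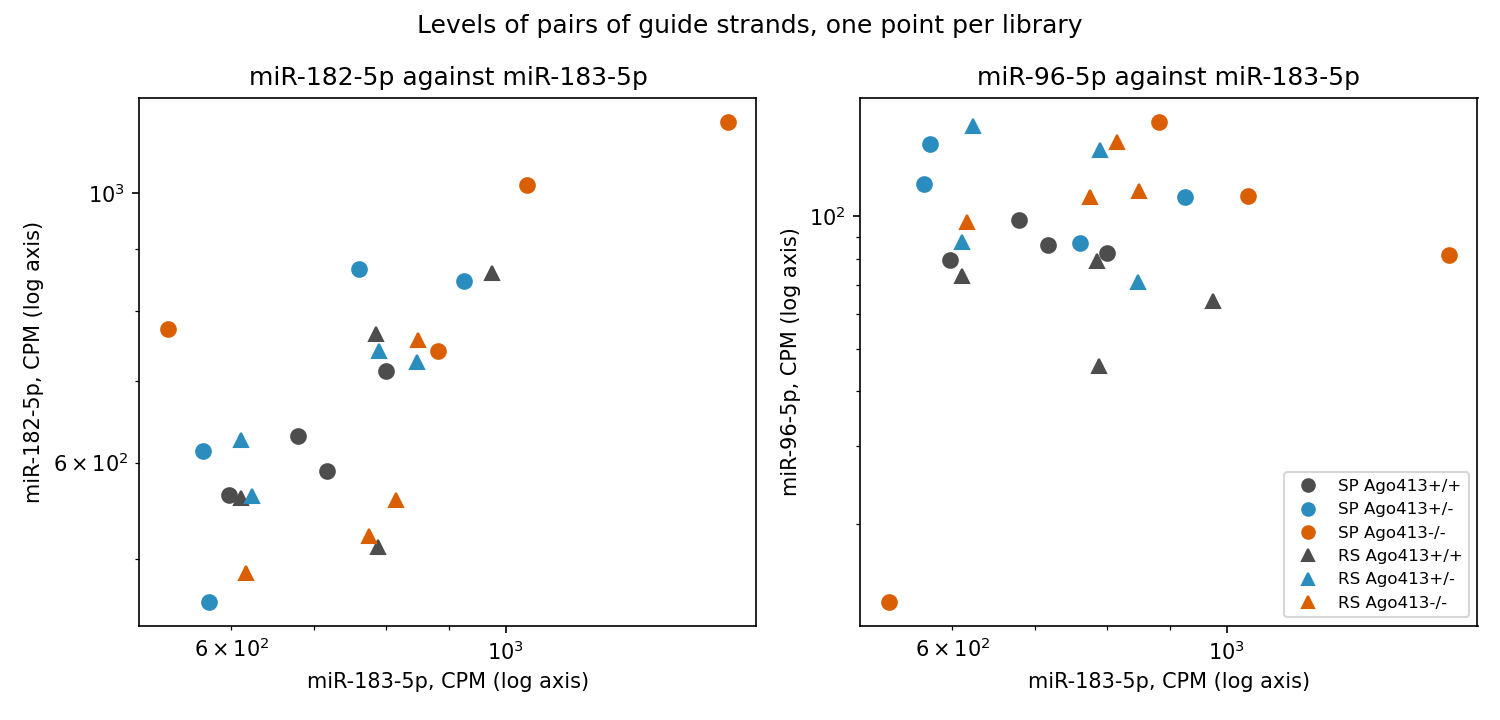
Level of miR-182-5p (left) and miR-96-5p (right) against that of miR-183-5p in CPM (log axes), with 1 point for each of the 24 libraries, circles for spermatocytes and triangles for round spermatids, coloured by genotype. miR-182-5p rises with miR-183-5p (r = 0.73), while miR-96-5p shows little relation to it (r = 0.16).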

How the data were processed

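Small RNA libraries were made with the NEBNext Small RNA kit and sequenced on a NextSeq 500. Per the labels and methods, the authors trimmed reads with Trim Galore and counted them against mouse miRBase with miRDeep2, and deposited raw counts per mature miRNA, the unit used here. From these counts, a miRNA was kept where 3 or more libraries of a fit held 10 counts or more (404 in spermatocytes, 426 in round spermatids, 450 over all libraries), scaled by TMM and tested with edgeR 4.0.16 (quasi-likelihood, Benjamini-Hochberg over all miRNAs of the fit). The study summed miRNAs into TargetScan families and tested the sums with DESeq2. Here DESeq2 1.42.0 on single miRNAs was an alternative. Another was edgeR on sums of rows with the same bases 2 to 8 in RefSeq, where rows without a sequence stayed single. The 2 steps were not combined, so the procedure of the study was not repeated. CPM used TMM over 24 libraries, whose totals ran from 182904 to 1072637. Ratios took exact permutation tests (scipy 1.17.1). Members, marker lists, named miRNAs and thresholds were chosen with earlier results of these data known. Named miRNAs are the members, miR-96-3p, miRNAs sharing the seed or its core, the closest sequences, the 5 most correlated by each measure, and the marker lists. The fits were tested on simulated data. The labels do not say that a replicate number marks a shared suspension, so the fits were not paired, and a replicate block was an alternative.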

Additional observations from a re-analysis of the deposited data

How the results depend on the processing

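The count of members called was 0 in every comparison under each alternative tried (DESeq2, RLE scaling, library totals, no filter, 10 counts in every library, seed families, only the groups compared, a term for early against late library numbers, a replicate block and GC offsets), except in round spermatids, Ago413-/- against Ago413+/+, where it was 1 with the adjusted p alone at any fold change and 0 to 1 when single libraries were left out. There miR-96-5p kept a log2 fold change of 0.75 to 0.99 over the alternatives other than leaving out libraries, with an adjusted p from 0.0283 to 0.191. It was 0.0416 with a replicate block, 0.0542 with a GC offset and 0.0742 with both. The replicate block changed no count of members called. Deviations of same-numbered libraries from their group means correlated between genotypes at -0.39 to 0.42, and between the cell types of a genotype at -0.16 to 0.37 in Ago413+/+, 0.02 to 0.42 in Ago413+/- and -0.15 to 0.28 in Ago413-/-. Between libraries of different numbers the cell types correlated at -0.41 to 0.41 in Ago413+/+, -0.41 to 0.44 in Ago413+/- and -0.29 to 0.24 in Ago413-/-. The ranges for same and different numbers thus overlapped in each genotype, which does not exclude a pairing of the cell types. By replicate from 1 to 4, the same-numbered cell types correlated at 0.35, 0.37, -0.16 and 0.33 in Ago413+/+. The values were 0.02, 0.42, 0.03 and 0.23 in Ago413+/-, and 0.28, -0.06, -0.15 and 0.10 in Ago413-/-. In the fit with a replicate block within genotype, miR-182-5p in RS against SP of Ago413-/- had a log2 fold change of -0.66 (edgeR adjusted p = 0.149), and its interaction was -0.74 (edgeR adjusted p = 0.415). For the miR-96-5p to miR-183-5p ratio in round spermatids, Ago413-/- against Ago413+/+, the exact permutation p with the replicate block was 0.125, the smallest possible.

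Of 694 recomputed fold changes of members, 58 changed sign, none past the thresholds, in 14 of 33 results of at most 0.38 in size. With library totals, miR-96-5p had -0.023 in SP Ago413-/- against Ago413+/+ and -0.15 in RS Ago413-/- against Ago413+/-, and miR-183-5p had -0.010 in SP Ago413+/- against Ago413+/+, -0.12 in RS Ago413-/- against Ago413+/+ and -0.085 in RS Ago413-/- against Ago413+/-, and miR-182-5p had -0.023 in RS against SP in Ago413+/+. With no filter, miR-183-5p had -0.084 in SP Ago413+/- against Ago413+/+ and -0.13 in RS Ago413-/- against Ago413+/+, and miR-96-5p had -0.062 in RS Ago413-/- against Ago413+/- and 0.0024 in RS against SP in Ago413+/-. With seed families summed, miR-183-5p had -0.021 in SP Ago413+/- against Ago413+/+ and -0.13 in RS Ago413-/- against Ago413+/+, and miR-182-5p had -0.0056 in RS Ago413+/- against Ago413+/+, and miR-96-5p had -0.061 in RS Ago413-/- against Ago413+/-. With the replicate block and a GC offset, miR-183-5p had -0.019 in SP Ago413+/- against Ago413+/+, -0.024 in RS Ago413-/- against Ago413+/+ and -0.0087 in RS against SP in Ago413+/-, and miR-182-5p had 0.016 in RS Ago413-/- against Ago413+/+. With 10 counts asked of every library, miR-183-5p had -0.0049 in RS Ago413-/- against Ago413+/+, and miR-96-5p had -0.0036 in RS Ago413-/- against Ago413+/-, and miR-182-5p had 0.0088 in RS against SP in Ago413+/-. With only the groups compared, miR-183-5p had -0.12 in RS Ago413-/- against Ago413+/+ and -0.038 in RS against SP in Ago413+/-. With a GC offset, miR-183-5p had -0.015 in RS Ago413-/- against Ago413+/+ and -0.036 in RS against SP in Ago413+/-, and miR-182-5p had 0.0041 in RS Ago413-/- against Ago413+/+. With single libraries left out miR-96-5p ran from -0.39 to 0.46 in SP Ago413-/- against Ago413+/+, -0.12 to 0.28 in RS Ago413-/- against Ago413+/- and -0.21 to 0.16 in RS against SP in Ago413+/-. With single libraries left out miR-183-5p ran from -0.060 to 0.072 in SP Ago413+/- against Ago413+/+, -0.23 to 0.17 in RS Ago413-/- against Ago413+/+, -0.23 to 0.023 in RS Ago413+/- against Ago413+/+, -0.011 to 0.25 in RS Ago413-/- against Ago413+/-, -0.072 to 0.18 in RS against SP in Ago413+/-, -0.44 to 0.047 in RS against SP in Ago413-/- and -0.26 to 0.059 in the interaction for Ago413+/- against Ago413+/+. With single libraries left out miR-182-5p ran from -0.37 to 0.020 in RS Ago413-/- against Ago413+/+, -0.074 to 0.15 in RS Ago413+/- against Ago413+/+, -0.031 to 0.19 in RS against SP in Ago413+/+ and -0.21 to 0.052 in RS against SP in Ago413+/-.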
